A study of Mus musculus with 12 samples.

Results

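The 43 genes described here form a module of the actin cytoskeleton and of cell motility, named member by member and looked up by symbol in the deposited expression table, where each matched 1 of 28987 genes. They encode actin itself and the proteins that bind its monomers, start and branch its filaments, bundle them, pull on them, tie them to the membrane and switch their assembly. Neutrophil RNA had been sequenced as 12 libraries, 3 in each of 4 groups. The groups were bone marrow (BM) neutrophils of wild-type mice (BM WT, libraries 4 to 6), peritoneal (PT) neutrophils of wild-type mice (PT WT, libraries 10 to 12), and the same tissues of MRP8/BCL2+ mice (BM Bcl2, libraries 1 to 3, and PT Bcl2, libraries 7 to 9). All mice were of the FVB strain, and 2 mL thioglycollate, an irritant that draws neutrophils into the peritoneal cavity, was injected into the peritoneum. The labels put collection 6 h after the injection, whereas the methods for the RNA name other times, an earlier and a later one, without saying which libraries were taken at which. The transgene carries human Bcl-2 under the control regions of the human MRP8 gene, which is active in myeloid cells, and makes neutrophils resistant to cell death. The labels call the source macrophages, and the design text and the methods call it neutrophils sorted by flow cytometry as CD11b+ F4/80- Gr1++ cells. Marrow and peritoneal cells were taken from each mouse, but the library columns do not name a mouse, so the p-values measure only the spread between libraries.

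Actin exists as free monomers and as filaments that grow at 1 end and shrink at the other. A neutrophil crawls by pushing out a front of branched filaments, which the Arp2/3 complex builds when WASP and WAVE proteins activate it under the control of Rac and Cdc42, while non-muscle myosin II contracts the rear. Profilin and thymosin decide how many monomers are ready to be added, cofilin, coronin and gelsolin take filaments apart, and talin, kindlin-3 and vinculin couple filaments to integrins. Neutrophils are rich in these proteins, and inherited loss of several of them, such as kindlin-3, DOCK8 or ARPC1B, causes immune deficiency in people.

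The values are TPM, reads corrected for gene length and scaled to a fixed total per library, so levels can be compared between genes within a library. Between libraries, a value also moves with how much of the total lies on a few other genes. The row of mouse Bcl2, used here to check the genotype labels, held 0.219 to 2.37 TPM in WT and 58.6 to 333 TPM in 5 of the 6 Bcl2 libraries. Library 9, labelled PT Bcl2, had 0.695 TPM and is kept under its label. Genes whose transcripts hold long A or T runs, of 31 bases or more, took 8.93 to 24.1% of the TPM of the BM libraries and of libraries 7 and 12, and 50.8 to 65.6% of the TPM of the other 4 PT libraries. Much of this lay on 1 gene, Gm13568, with 30.4 to 52.5% of the TPM of those 4 PT libraries. It took 2.25 to 14.3% of the TPM of the BM libraries and of libraries 7 and 12. The summed TPM of 9 neutrophil markers was lower in PT than in BM, going from 189167 to 351331 in WT marrow and from 15201 to 55618 in WT peritoneum. For Bcl2 it spanned 77034 to 220740 in marrow and 19293 to 70169 in peritoneum. S100a8 and S100a9 were the highest of the 9 in every library, were lower in PT and dominate this sum. The 9 markers did not all move that way. Csf3r was at 183 to 1038 TPM in WT marrow and 1839 to 2478 in WT peritoneum. In Bcl2 it was at 132 to 816 in marrow and 1974 to 4569 in peritoneum. Itgam was also higher in PT without overlap in WT. Of these markers, all were above 1 TPM in every library except Ly6g, which was listed at 0 in library 12. Macrophage markers, 11 in all, had a summed TPM between 15.2 and 119 in marrow of WT mice and between 89.4 and 101 in their peritoneum. For Bcl2 mice the limits were 18.5 and 134 (marrow) and 19.1 and 143 (peritoneum). Of the 11, 8 exceeded 1 TPM throughout the PT WT libraries, whereas 2 did so throughout BM WT. With Bcl2 the direction was the other one, 1 of them in PT against 4 in BM. The summed TPM of 5 mast cell markers reached 678 in PT WT (library 12) against at most 78.0 in BM. The sum of 7 B cell markers went from 90.0 to 287 in WT marrow and from 656 to 1512 in WT peritoneum. Its range in Bcl2 was 38.8 to 262 in marrow and 253 to 857 in peritoneum. The sum of 6 platelet markers was at most 3.97 in WT marrow and at least 31.9 (up to 156) in WT peritoneum. In Bcl2 marrow it spanned 2.28 to 24.1 and in Bcl2 peritoneum 13.3 to 526, where Pf4 alone reached 521 in library 7. That of 5 eosinophil markers, of which Epx was listed at 0 in all libraries, spanned 2.06 to 7.87 in WT marrow, 22.3 to 34.9 in WT peritoneum, 1.63 to 9.63 in Bcl2 marrow and 5.84 to 24.7 in Bcl2 peritoneum. The part of these marker levels in the changes described here was not tested. Fewer genes were listed at 1 TPM or more in PT Bcl2 (7906, 8269 and 9523 in libraries 7, 8 and 9) than in BM Bcl2 (11503 to 11910). In WT the numbers were 9030 to 11739 in marrow and 10794 to 11861 in peritoneum. The part of this in the lower values of PT Bcl2, listed zeros among them, was not tested.

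Between PT and BM neutrophils, Basp1, a membrane-bound actin organizer, rose in both genotypes, and Coro1a, the leukocyte coronin, was called lower in both, though 11 of 24 alternative settings lost that call in each. The other calls were each made in 1 genotype, and for no member did the test of the difference between the genotypes pass. A member was called when its change between groups was at least 2-fold and its limma p, adjusted by Benjamini-Hochberg over all 13456 genes tested, was under 0.05. All 43 members were among the genes tested. In WT, 2 of the 43 members rose (Basp1 and Diap1) against 1.59% of all genes tested, and 1 fell (Coro1a) against 1.22% of all. In Bcl2, 1 member rose (Basp1) against 2.31% of all, and 8 fell (Actr3, Arpc4, Coro1a, Evl, Fermt3, Rac1, Tmsb4x and Vcl) against 19.1% of all, so that members were called lower at about the rate of all genes. The change in PT against BM differed between the genotypes for 0 of the 43 members by limma (adjusted p alone), where 0.0149% of all genes did, and 1 member did at an unadjusted p under 0.05. The median log2 fold change of the members was -0.50 in WT, where that of all genes tested was 0.22, and -0.79 in Bcl2, where that of all was -1.02. Without library 9, 2 members rose (1.45% of all genes did) and 2 fell (1.10% of all) in WT, and in Bcl2 Basp1 rose (2.29% of all) and Arpc4 and Fermt3 fell (16.0% of all). Without libraries 7 and 12, 3 rose (1.54% of all) and 4 fell (1.34% of all) in WT, and 1 rose (1.66% of all) and 20 fell (15.5% of all) in Bcl2. In each genotype 12 of the 43 estimates were above 0, where 57.6% of those of all genes were in WT and 25.7% in Bcl2. With median centring 34 of the 43 were above 0 in Bcl2, and after rescaling without genes with long A or T runs 22 were in WT and 20 in Bcl2. In bulk RNA, fewer cells of a type and less RNA per cell cannot be told apart.

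**Figure D1:**
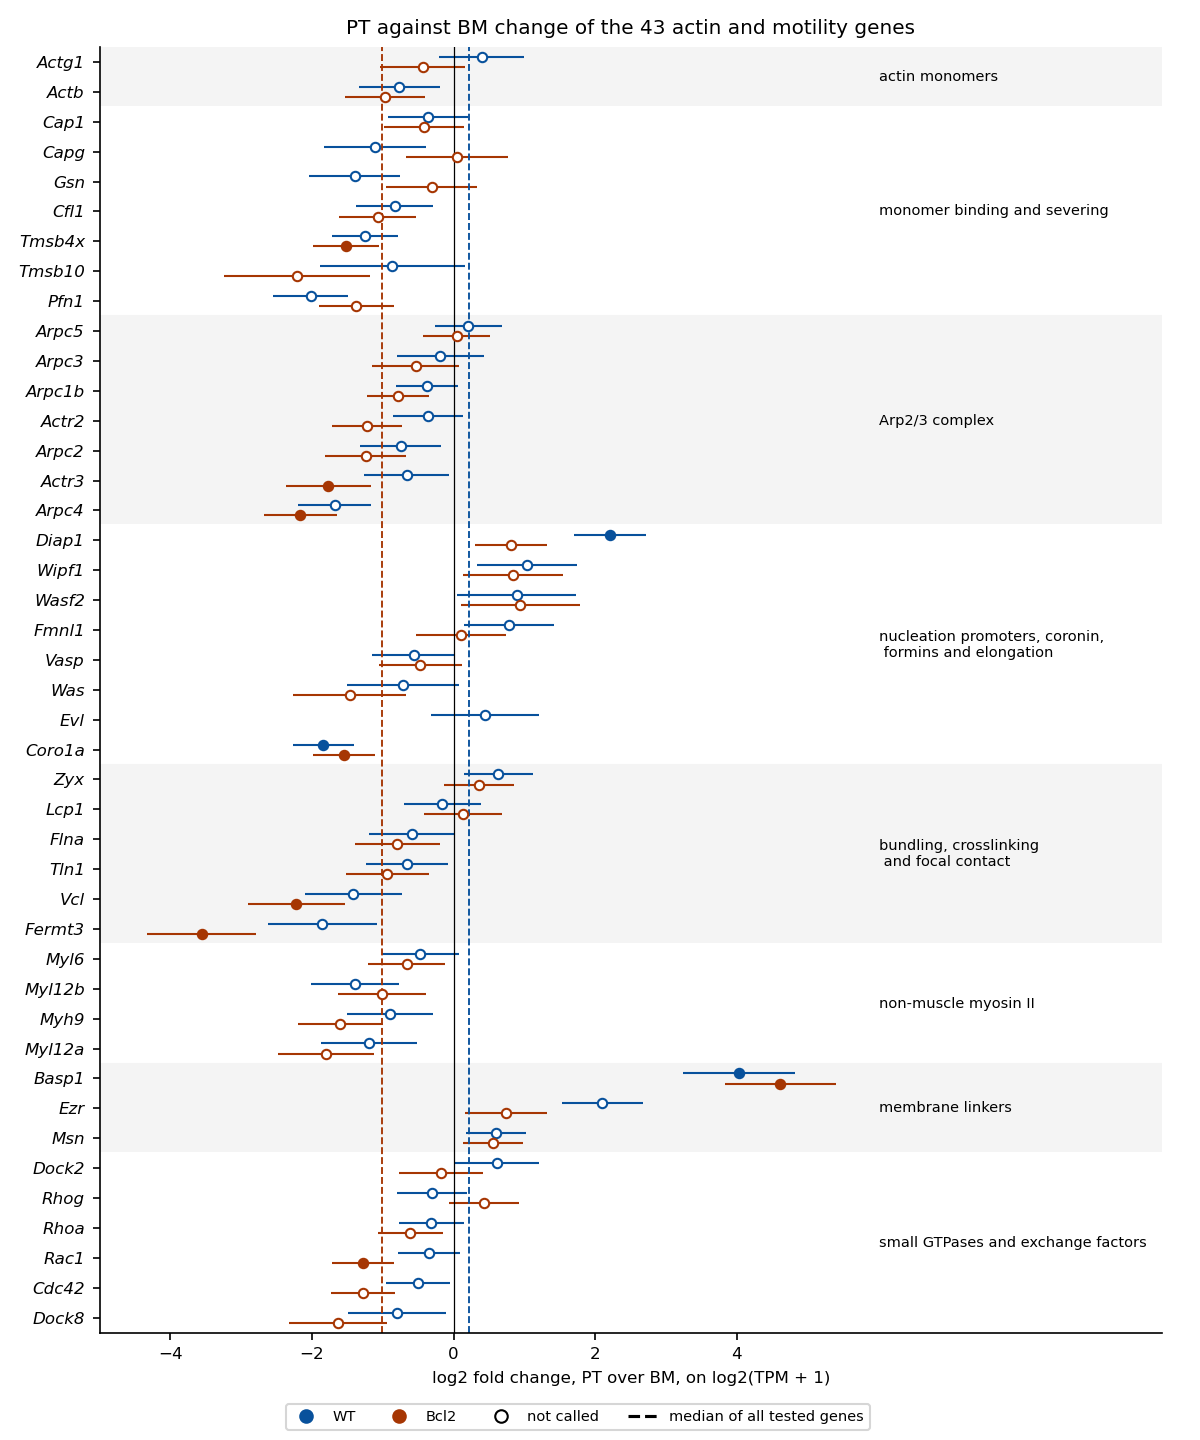
Each row is 1 of the 43 genes, grouped by role, and the x axis is the log2 fold change of PT over BM on log2(TPM + 1), in blue for WT and brown for Bcl2, with bars of 1 standard error and filled points for changes that passed the test. The dashed lines mark the median change of all genes tested (0.22 in WT and -1.02 in Bcl2). Basp1 lies far to the right of all other members in both genotypes, and Evl has no point in Bcl2 because it is listed at 0 in PT Bcl2.

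The members' level went with the share of each library that lay on genes with long A or T runs. Summed over the 43 members, the level was 15723, 19283 and 20114 TPM in WT marrow and 9947, 9877 and 22812 in WT peritoneum. In Bcl2 it was 19841, 16387 and 18192 in marrow and 20081, 8599 and 8139.7 in peritoneum. Libraries 12 and 7 thus stood with the BM libraries and the other 4 PT libraries lay below all of them. As a share of the TPM outside the genes with long runs, the members took 2.15 to 3.10% in all 12 libraries, and the PT and BM groups overlapped in both genotypes. Rescaled to that share, the median log2 fold change of the members was 0.047 in WT and -0.048 in Bcl2, with medians over all genes of 0.66 and -0.62. On that scale Basp1 and Diap1 rose and Pfn1 fell in WT, where 3.85% of all genes rose and 0.89% fell. In Bcl2 Basp1 and Msn rose and Arpc4 and Evl fell, where 4.11% of all rose and 8.34% fell. After median centring of the libraries, limma called 0 members in WT, where 12 had an unadjusted p under 0.05, and 0.832% of all genes rose and 1.46% fell. In Bcl2, 5 members rose (Basp1, Diap1, Ezr, Msn and Rhog) where 12.2% of all genes did, and 0 fell where 3.47% did.

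**Figure D2:**
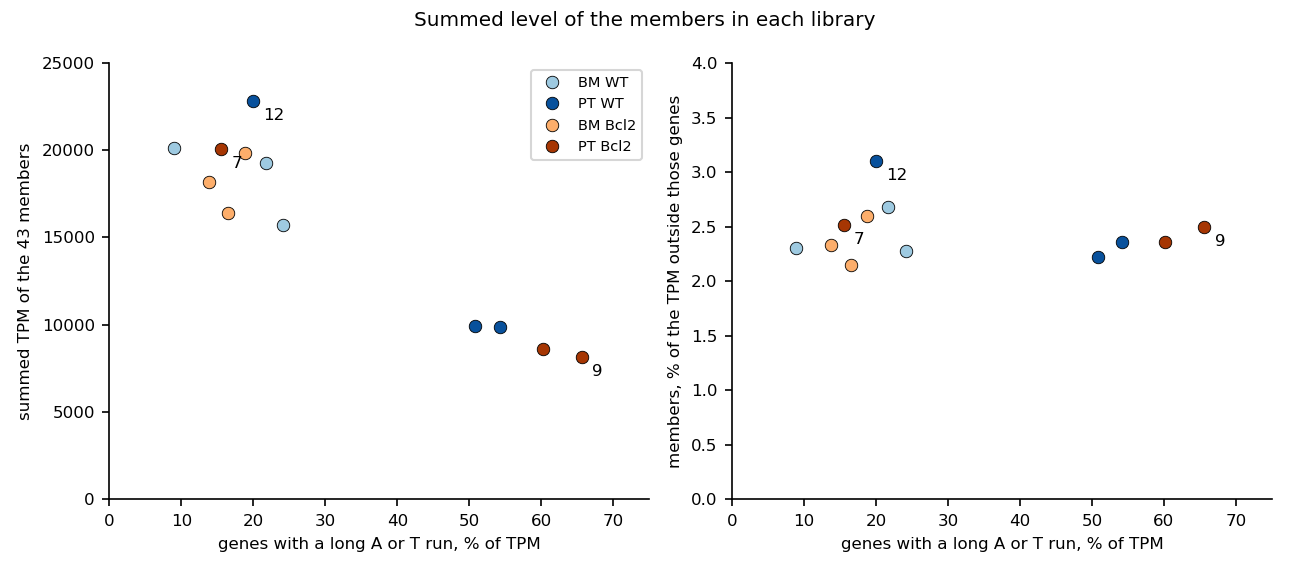
The y axis is the summed TPM of the 43 members (left) and their share of the TPM outside genes with long A or T runs, in percent (right), against the share of TPM on those genes (x axis, percent), with 1 point a library coloured by group. On the left the 4 libraries with 50.8 to 65.6% on such genes lie at 8139.7 to 9947 TPM and the other 8 at 15723 or more, whereas on the right all 12 lie between 2.15 and 3.10%.

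Promoter sequences, from RefSeq on GRCm38.p6, were found for 40 of the 43 members (51 promoters). They are shown because serum response factor, whose partner MRTF is held back by free actin monomers, is a known regulator of actin genes through the CArG box, CC and GG around 6 bases that are each A or T. The window ran from 250 bases before to 50 after the start site, and both strands were read. A CArG box was found in 4 member promoters, those of Actg1, Arpc4, Myl6 and Vcl, and in 1.63% of all 32851 promoters. The stretches around these 4 boxes are printed 5′ to 3′ on the strand of the gene, with the box in capitals.
Actg1, chr11:120348551-120348610, minus strand: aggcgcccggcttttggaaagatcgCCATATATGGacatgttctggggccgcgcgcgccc
Arpc4, chr6:113377863-113377897, plus strand: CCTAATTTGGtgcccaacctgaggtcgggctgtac
Myl6, chr10:128493025-128493084, minus strand: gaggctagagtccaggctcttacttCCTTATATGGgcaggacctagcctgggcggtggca
Vcl, chr14:20929148-20929205, plus strand: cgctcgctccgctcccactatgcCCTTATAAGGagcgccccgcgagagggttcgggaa
Of these 4 genes, Arpc4 and Vcl were called lower in Bcl2, where 19.1% of all genes tested were. Actg1 and Myl6 were called in neither genotype. The AP-1 site, TGACTCA or TGAGTCA, was found in the promoters of Ezr, Myl12a and Zyx and in 5.202% of all promoters, and the NF-kB consensus, which can overlap other GC-rich motifs, in those of 7 members, Basp1 among them, and in 8.46% of all. Basp1 is shown over the 250 bases before its start because it is the member that rose in both genotypes, and Ezr because it was called higher only in some settings. In Vcl an NF-kB match overlaps the end of the CArG box. Capitals mark the first of a pair of overlapping NF-kB matches in Basp1 and the AP-1 site in Ezr.
Basp1, chr15:25413765-25414014, minus strand: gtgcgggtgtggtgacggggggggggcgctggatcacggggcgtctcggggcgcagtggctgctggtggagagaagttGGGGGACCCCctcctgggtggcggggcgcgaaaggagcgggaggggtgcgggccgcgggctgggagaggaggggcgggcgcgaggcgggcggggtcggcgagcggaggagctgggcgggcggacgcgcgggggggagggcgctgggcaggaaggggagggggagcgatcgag
Ezr, chr17:6782781-6782837, minus strand: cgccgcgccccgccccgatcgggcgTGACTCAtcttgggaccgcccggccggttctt
The Basp1 stretch of 250 bases was 78.8% G and C. Over the full window of 300 bases, the 50 after the start included, the median of all promoters was 52.7% and the 95th percentile 73.7%. The 2 windows thus differ. These motifs were chosen after the members' values had been seen, and a match is a description of the sequence and not a site shown to be used.

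Of the 3 membrane linkers, Basp1 rose in both genotypes, and Ezr and Msn were called in neither. Of all genes tested, 1.59% rose in WT and 2.31% in Bcl2. Basp1 (chr15:25363277-25413764, GRCm38), a myristoylated protein that gathers the lipid PIP2 and organizes actin under the plasma membrane, was at 2.78, 23.6 and 24.2 TPM in WT marrow and 299.99, 208 and 159 in WT peritoneum. In Bcl2, Basp1 had 12.5, 10.2 and 2.25 in marrow and 283, 256.3 and 98.2 in peritoneum. Every PT library lay above every BM library in both genotypes. The log2 fold change was 4.02 ± 0.79 (SE, adjusted p = 0.0141) in WT and 4.61 ± 0.79 (SE, adjusted p = 0.00229) in Bcl2, and that in WT missed the threshold without library 4, without library 10 and after median centring (adjusted p up to 0.0763), while that in Bcl2 passed under all 24 alternatives. Ezr (chr17:6738041-6782784), ezrin, which links filaments to membrane proteins, was at 41.1, 40.4 and 13.5 TPM in WT marrow and 128, 142 and 108 in WT peritoneum. In Bcl2, Ezr had 40.1, 52.1 and 42.9 in marrow and 39.3, 104 and 104 in peritoneum. Its PT WT libraries were all above BM WT, while in PT Bcl2 libraries 8 and 9 were high and library 7 lay below all 3 BM Bcl2 libraries. The log2 fold change of 2.10 ± 0.58 (SE, adjusted p = 0.0659) in WT did not pass. Msn (chrX:96096042-96168552), moesin, the main protein of this family in leukocytes, was at 480.4, 787 and 633 TPM in WT marrow and 841, 955 and 1044 in WT peritoneum. In Bcl2, Msn had 848, 667 and 651 in marrow and 1652, 853 and 827 in peritoneum. It was the most abundant of these 3 genes in all 12 libraries, with PT above BM in WT and overlap in Bcl2 on the TPM scale, and log2 fold changes of 0.60 ± 0.42 (SE, adjusted p = 0.514) in WT and 0.55 ± 0.42 (SE, adjusted p = 0.358) in Bcl2. The sums of the B cell, platelet and eosinophil markers, given above, were like Basp1 and Ezr higher in PT than in BM without overlap in WT. In Bcl2 these sums overlapped between PT and BM, as Ezr did, whereas Basp1 did not. The part of the marker sums in the levels of Basp1 and Ezr was not tested.

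**Figure D3:**
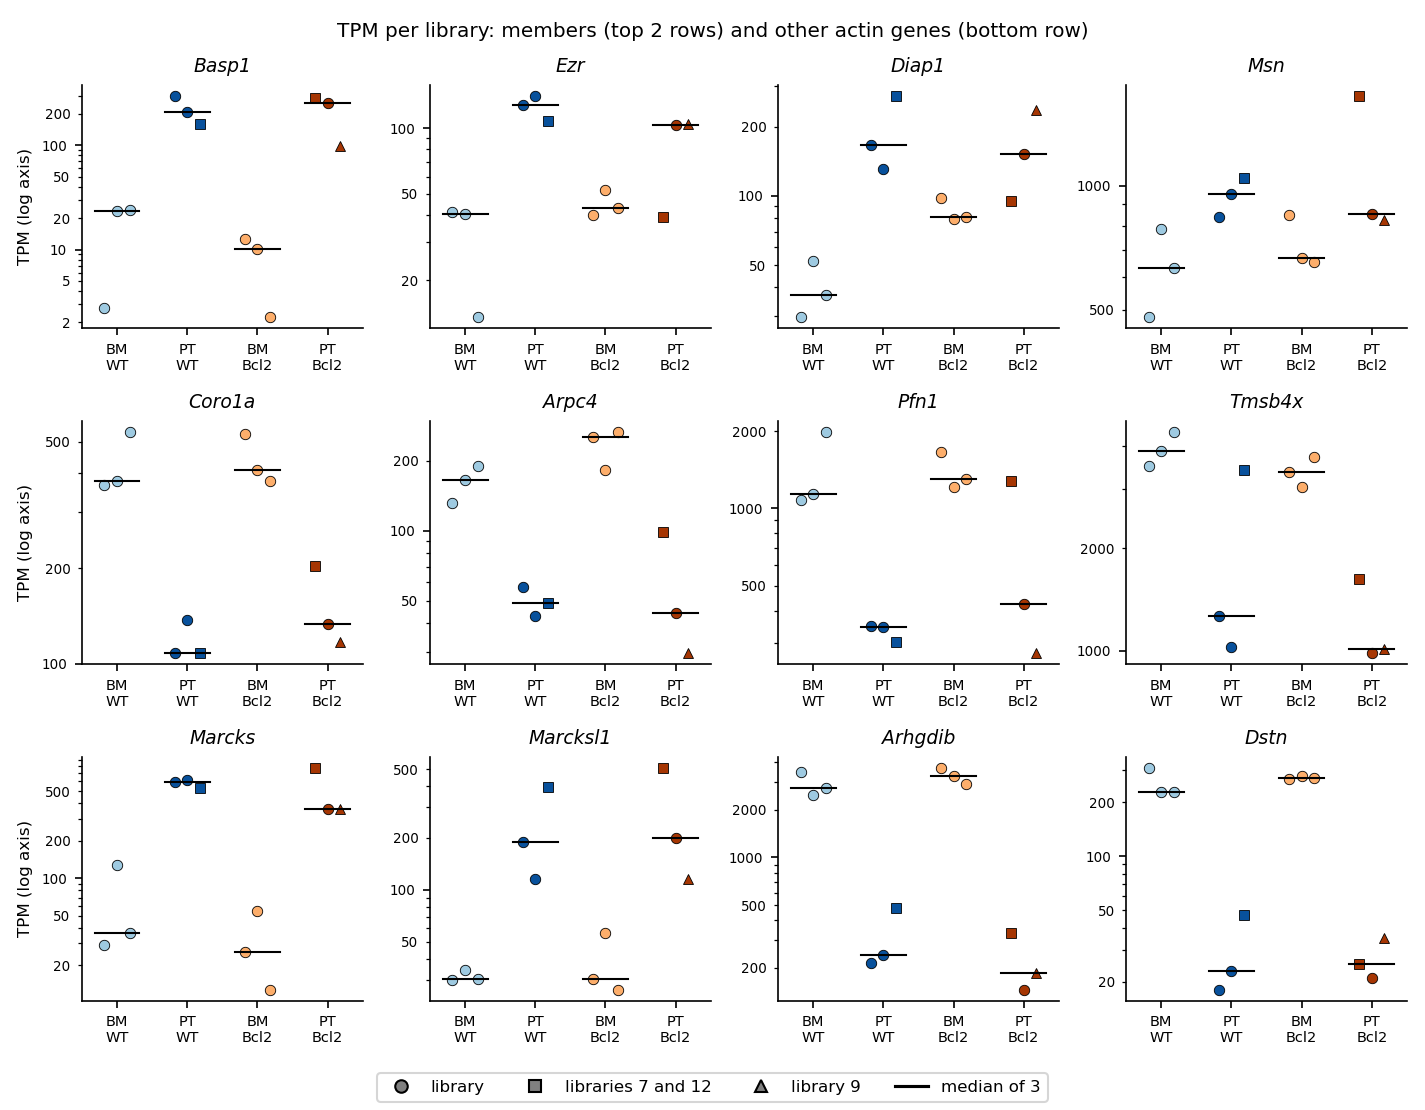
TPM on a log axis in the 4 groups, with 1 point a library, squares for libraries 7 and 12, triangles for library 9 and a line at the median of 3, for 8 members (upper rows) and 4 other actin genes (bottom row). PT Basp1 lies at 98.2 to 299.99 TPM and BM Basp1 at 2.25 to 24.2, and Marcks, Marcksl1, Arhgdib and Dstn also separate PT from BM in both genotypes.

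The actins were among the most abundant members and did not pass the test. Actb (chr5:142903115-142906754), beta-actin, was at 2502, 2892 and 3397 TPM in WT marrow and 1069.8, 1106 and 4229.7 in WT peritoneum. In Bcl2, Actb had 3035, 2771 and 2489 in marrow and 2944, 1031 and 912 in peritoneum. Libraries 12 and 7 were as high as BM or higher and the other 4 PT libraries were lower, so that the groups overlapped, with log2 fold changes of -0.76 ± 0.57 (SE, adjusted p = 0.54) in WT and -0.97 ± 0.57 (SE, adjusted p = 0.223) in Bcl2. Actg1 (chr11:120345690-120348542), gamma-actin, was at 437, 673 and 653 TPM in WT marrow and 454, 395 and 2444 in WT peritoneum. In Bcl2, Actg1 had 658, 443 and 544 in marrow and 548, 295 and 394 in peritoneum. Library 12 lay far above all the others, and PT and BM overlapped in both genotypes. Of the 31-base words of their transcripts, 23.6% in Actb and 40.2% in Actg1 also occurred in another gene, so that reads may have been divided among copies. The sum of both actins changed by -0.49 ± 0.57 (SE, adjusted p = 0.723) in WT and -0.86 ± 0.57 (SE, adjusted p = 0.287) in Bcl2.

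Of the 7 genes that bind monomers or cut filaments, 1 was called, lower in Bcl2, where 19.1% of all genes tested fell. Tmsb4x (chrX:167207093-167209315), thymosin beta 4, which keeps monomers from joining filaments, had the highest mean level of all 43 members and was at 3505, 3876 and 4408 TPM in WT marrow and 1262, 1025 and 3391 in WT peritoneum. In Bcl2, Tmsb4x had 3349, 3036 and 3727 in marrow and 1619.6, 982 and 1009 in peritoneum. All PT libraries lay below all BM libraries of the same genotype. It fell in Bcl2, with a log2 fold change of -1.52 ± 0.47 (SE, adjusted p = 0.0325). Leaving out 1 library lost the call in 5 of 12 fits (without library 1, 2, 3, 8 or 9, adjusted p up to 0.104), the value without genes with long runs was -0.77 (adjusted p = 0.134) and that with median centring 0.070. In WT its change of -1.26 ± 0.47 (SE, adjusted p = 0.18) did not pass. Pfn1 (chr11:70651850-70654644), profilin 1, which feeds monomers to growing ends, was at 1077, 1136 and 1986 TPM in WT marrow and 348, 346 and 302 in WT peritoneum. In Bcl2, Pfn1 had 1658, 1207 and 1296 in marrow and 1278, 426 and 273 in peritoneum. In WT the PT libraries lay far below the BM libraries, with a log2 fold change of -2.02 ± 0.53 (SE, adjusted p = 0.0543) that missed the threshold as deposited and passed without the genes with long runs. In Bcl2, library 7 was within the BM range, and the change was -1.37 ± 0.53 (SE, adjusted p = 0.0748). Tmsb10, a relative of thymosin beta 4, was at 34.99, 79.2 and 49.1 TPM in WT marrow and 16.9, 34.8 and 36.4 in WT peritoneum. In Bcl2, Tmsb10 had 73.5, 48.9 and 473 in marrow and 116, 3.31 and 34.1 in peritoneum. The Bcl2 libraries spread widely in both tissues, and the changes of -0.86 ± 1.03 in WT and -2.21 ± 1.03 in Bcl2 (log2 ± SE) did not pass. Copies elsewhere in the genome shared 31.99% of its 31-base words. Over the 12 libraries, Cfl1, cofilin, the chief filament-cutting protein, ranged over 139 to 755 TPM, Cap1, which recycles monomers, over 158 to 589 TPM, Capg, which caps filament ends, over 29.8 to 248 TPM, and Gsn, gelsolin, over 10.1 to 65.1 TPM. None of these 4 was called, and the PT WT libraries lay below BM WT without overlap for Cfl1 and Gsn.

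In the Arp2/3 complex, 2 of 7 subunits fell in Bcl2, where 19.1% of all genes tested fell. In WT 0 were called (limma, with unadjusted p under 0.05 for 1 of the 7, Arpc4), where 1.22% of all fell. Arpc4 (chr6:113378115-113390448), a core subunit, was at 131, 165 and 189.7 TPM in WT marrow and 57.4, 42.9 and 48.7 in WT peritoneum. In Bcl2, Arpc4 had 252, 183 and 266 in marrow and 98.3, 44.1 and 29.6 in peritoneum. PT lay below BM without overlap in both genotypes, libraries 7 and 12 included, with log2 fold changes of -1.68 ± 0.51 (SE, adjusted p = 0.0987) in WT and -2.17 ± 0.51 (SE, adjusted p = 0.0106) in Bcl2. The call in Bcl2 was kept under all alternatives except median centring, and Arpc4 was also called in WT after quantile normalization and after rescaling without genes over 1% of TPM. Actr3, the Arp3 subunit, was at 501, 568 and 309.9 TPM in WT marrow and 160.2, 174 and 789.5 in WT peritoneum. In Bcl2, Actr3 had 413, 579 and 564 in marrow and 251, 105 and 126 in peritoneum. Its PT Bcl2 libraries lay below BM Bcl2 and it fell by 1.77 on the log2 scale there (SE 0.60, adjusted p = 0.0475), a call that 9 of the 12 fits without 1 library lost, while in WT library 12 was the highest of all 12 libraries. Actr2, the Arp2 subunit, was at 235, 272 and 136 TPM in WT marrow and 116, 136 and 257 in WT peritoneum. In Bcl2, Actr2 had 199, 259 and 301 in marrow and 141, 102 and 82.5 in peritoneum. The groups overlapped in WT and not in Bcl2, with no call. Arpc2, the most abundant subunit on average, was at 850.1, 897 and 652 TPM in WT marrow and 300.4, 329 and 1058 in WT peritoneum. In Bcl2, Arpc2 had 724, 863 and 1038 in marrow and 788, 208 and 299 in peritoneum. Library 12 lay above BM WT and library 7 within BM Bcl2, and the changes of -0.75 ± 0.57 and -1.24 ± 0.57 (log2 ± SE) did not pass. Arpc1b ranged over 179 to 541 TPM, Arpc3 over 45.1 to 228 TPM and Arpc5 over 327 to 1062 TPM, and none of these 3 subunits was called.

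The nucleation and elongation group moved in both directions. Coro1a (chr7:126699773-126707787), which binds filaments and the Arp2/3 complex in leukocytes, was at 366, 377 and 538 TPM in WT marrow and 108, 137 and 108 in WT peritoneum. In Bcl2, Coro1a had 529, 407 and 376 in marrow and 204, 134 and 117 in peritoneum. All 6 PT libraries lay below all 6 BM libraries. It fell by 1.84 on the log2 scale in WT (SE 0.43, adjusted p = 0.0353) and by 1.55 in Bcl2 (SE 0.43, adjusted p = 0.0223). Leaving out 1 library lost the WT call in 7 of 12 fits (without library 2, 4, 5, 6, 10, 11 or 12, adjusted p up to 0.121) and the Bcl2 call in 5 (without library 1, 2, 3, 8 or 9, up to 0.0631). Without genes with long runs the values were -1.30 (adjusted p = 0.0912) and -0.80 (adjusted p = 0.21), and with median centring the Bcl2 value was 0.040. Diap1, the formin mDia1, which lengthens unbranched filaments, was at 29.7, 52.0 and 37.1 TPM in WT marrow and 166, 131 and 273 in WT peritoneum. In Bcl2, Diap1 had 97.5, 79.6 and 81.3 in marrow and 95.1, 153 and 235 in peritoneum. In WT all PT libraries lay above all BM libraries and it rose by 2.20 ± 0.51 (SE, adjusted p = 0.032), a call kept without genes with long runs and lost in 6 of the 12 fits without 1 library. In Bcl2 the groups overlapped, with library 7 within the BM range and a change of 0.81 ± 0.51 (SE, adjusted p = 0.264). The difference between the genotypes in this change was -1.40 ± 0.72 (SE, adjusted p = 0.331) and did not pass. Evl (chr12:108554720-108688516), an elongation factor of the Ena/VASP family, was the least abundant member and was at 3.94, 5.85 and 0.200 TPM in WT marrow and 3.36, 5.00 and 2.86 in WT peritoneum. In Bcl2, Evl had 2.35, 5.98 and 10.5 in marrow and 0 in all 3 in peritoneum. It is listed at 0 in the 3 libraries labelled PT Bcl2, library 9 included, against 2.35 to 10.5 TPM in BM Bcl2, so no fold is given there, and limma called it lower (adjusted p = 0.0239), a call lost in 8 of the 24 alternatives (adjusted p up to 0.266), among them those without library 2, 3, 7, 8 or 9. At these levels a listed 0 does not show that the gene was silent.

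Vasp, the related and more abundant elongation factor, was at 107, 135 and 200.3 TPM in WT marrow and 66.2, 60.4 and 222 in WT peritoneum. In Bcl2, Vasp had 187, 114 and 75.1 in marrow and 105, 62.5 and 91.0 in peritoneum. Its groups overlapped in both genotypes. Wasf2, WAVE2, which activates the Arp2/3 complex below Rac, was at 200.3, 179 and 36.5 TPM in WT marrow and 150.1, 250.004 and 226 in WT peritoneum. In Bcl2, Wasf2 had 326, 235 and 141 in marrow and 1458, 540.0 and 97.7 in peritoneum. Libraries 7 and 8 were the highest of all 12 and library 9 the lowest but 1, and the changes of 0.89 ± 0.84 in WT and 0.94 ± 0.84 in Bcl2 (log2 ± SE) did not pass. Wipf1, WIP, the partner that keeps WASP stable, was at 31.5, 48.9 and 28.7 TPM in WT marrow and 105, 78.6 and 48.2 in WT peritoneum. In Bcl2, Wipf1 had 35.9, 42.0 and 70.1 in marrow and 316, 48.2 and 40.3 in peritoneum. Library 7 stood apart, and the changes of 1.04 ± 0.71 and 0.84 ± 0.71 (log2 ± SE) did not pass either. Fmnl1, a formin of blood cells, had the highest mean level of the group and was at 142, 481 and 502 TPM in WT marrow and 422, 462 and 889 in WT peritoneum. In Bcl2, Fmnl1 had 569, 184 and 167 in marrow and 390.0, 158 and 350.4 in peritoneum, and PT and BM overlapped broadly. Was, WASP itself, ranged over 4.37 to 75.6 TPM and was not called.

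Among the 6 genes of bundles, crosslinks and focal contacts, Fermt3 and Vcl fell in Bcl2 and the other 4 were not called. Of all genes tested, 19.1% fell in Bcl2. Fermt3 (chr19:6998958-7019469), kindlin-3, which blood cells need to activate integrins, was at 42.4, 40.6 and 45.8 TPM in WT marrow and 6.73, 13.0 and 15.5 in WT peritoneum. In Bcl2, Fermt3 had 65.3, 44.97 and 36.0 in marrow and 0, 6.55 and 8.13 in peritoneum. Every PT library lay below every BM library, and the log2 fold change was -1.85 ± 0.77 (SE, adjusted p = 0.243) in WT and -3.56 ± 0.77 (SE, adjusted p = 0.00702) in Bcl2, the latter kept in all 12 fits without 1 library and lost without genes with long runs (adjusted p = 0.0578 there), after quantile normalization and with median centring. Vcl (chr14:20929398-21033676), vinculin, was at 58.3, 34.7 and 22.4 TPM in WT marrow and 9.77, 14.7 and 14.4 in WT peritoneum. In Bcl2, Vcl had 53.7, 74.0 and 40.5 in marrow and 32.1, 4.39 and 8.49 in peritoneum. PT lay below BM in both genotypes, and it fell by 2.22 on the log2 scale in Bcl2 (SE 0.69, adjusted p = 0.0342), a call lost in 9 of the 24 alternatives (adjusted p up to 0.555), among them those without library 1, 2, 3, 8 or 9. Of its 31-base words, 25.3% were shared with the gene Ap3m1 beside it. Lcp1, L-plastin, the filament bundler of leukocytes, had the highest mean level of the group and was at 717, 1583 and 1511 TPM in WT marrow and 836, 726 and 2035 in WT peritoneum. In Bcl2, Lcp1 had 1169, 753 and 768 in marrow and 1893, 736 and 637 in peritoneum. PT and BM overlapped in both genotypes, with changes of -0.16 ± 0.55 and 0.13 ± 0.55 (log2 ± SE). Zyx, zyxin, ranged over 128 to 414 TPM, Flna, filamin A, over 78.1 to 406 TPM, and Tln1, talin 1, over 27.5 to 166 TPM, with no call.

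None of the 4 genes of non-muscle myosin II was called by limma in either genotype, 1 having an unadjusted p under 0.05 in WT (Myl12b) and 2 in Bcl2 (Myh9 and Myl12a). Of all genes tested, 1.22% were called lower in WT and 19.1% in Bcl2. Myl6, the essential light chain, had the highest mean level and was at 293, 262 and 391 TPM in WT marrow and 181, 198 and 311 in WT peritoneum. In Bcl2, Myl6 had 496, 312 and 513 in marrow and 659, 177 and 171 in peritoneum. Library 7 lay above all the others. Myl12a, a regulatory light chain, was at 124, 160.3 and 119 TPM in WT marrow and 26.2, 32.04 and 222 in WT peritoneum. In Bcl2, Myl12a had 170.2, 227 and 121 in marrow and 49.8, 44.3 and 48.0 in peritoneum. Library 12 was high in WT, while all PT Bcl2 libraries lay below BM Bcl2. Myl12b, its near-identical neighbour, was at 242, 306 and 409.9 TPM in WT marrow and 68.8, 94.5 and 251 in WT peritoneum. In Bcl2, Myl12b had 343, 278 and 343 in marrow and 343, 178 and 63.8 in peritoneum. In each genotype 1 PT library lay within the BM range. The changes of the regulatory chains summed were -1.32 ± 0.60 (SE, adjusted p = 0.29) in WT and -1.20 ± 0.60 (SE, adjusted p = 0.159) in Bcl2, and 22.9% and 26.0% of their 31-base words were shared with other genes. Myh9, the heavy chain, ranged over 36.7 to 269.6 TPM.

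Of the 6 genes of small GTPases and their activators, Rac1 fell in Bcl2, where 19.1% of all genes tested fell. Rac1, which drives the branched front of the cell, was at 301, 266 and 301 TPM in WT marrow and 186, 209 and 299 in WT peritoneum. In Bcl2, Rac1 had 262, 275 and 403 in marrow and 148, 91.7 and 148 in peritoneum. Its PT Bcl2 libraries lay below BM Bcl2 and the log2 fold change of -1.28 ± 0.44 (SE, adjusted p = 0.0498) lay at the edge of the threshold, failed in 10 of the 12 leave-one-out fits, and was 0.31 with median centring. In WT it changed by -0.35 ± 0.44 (log2 ± SE) and the groups overlapped. Transcripts of Rac1 shared 51.3% of their 31-base words with other genes, nearly all with the overlapping gene Daglb. Dock2 (chr11:34226815-34783892), which activates Rac in leukocytes, was at 73.1, 84.5 and 66.8 TPM in WT marrow and 100.3, 84.2 and 176 in WT peritoneum. In Bcl2, Dock2 had 101, 89.9 and 66.8 in marrow and 195, 42.9 and 49.3 in peritoneum. Dock8 (chr19:24999534-25202432), which activates Cdc42, was at 63.5, 64.5 and 41.4 TPM in WT marrow and 26.5, 18.2 and 63.1 in WT peritoneum. In Bcl2, Dock8 had 74.3, 63.1 and 76.1 in marrow and 64.4, 8.40 and 19.1 in peritoneum. Neither was called, with overlap of PT and BM in both genotypes. Cdc42 ranged over 60.7 to 268 TPM, Rhoa over 123 to 315 TPM and Rhog over 92.0 to 281 TPM. For these switches, protein activity is set by bound nucleotide, which RNA levels do not measure.

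A ratio of 2 genes within a library depends little on scaling between libraries where both genes lie well above 1 TPM. In that way 8 pairs of related genes were compared. Because 1 was added to each TPM, ratios with a low gene still move with scaling. This holds most for Vasp to Evl, since Evl is listed at 0 in PT Bcl2. The ratio of Dock2 to Dock8, on TPM + 1, was 1.15, 1.30 and 1.60 in WT marrow and 3.68, 4.44 and 2.76 in WT peritoneum. In Bcl2, the Dock2 to Dock8 ratio was 1.35, 1.42 and 0.880 in marrow and 2.99, 4.67 and 2.50 in peritoneum. Every PT library, library 9 included, lay above every BM library. The mean log2 ratio was 1.43 higher in PT than in BM (exact two-sided permutation test within genotypes, p = 0.005, the smallest p that the 400 arrangements allow, adjusted over the 8 pairs 0.04), by 1.41 in WT and 1.46 in Bcl2, and it stayed past the threshold without each library in turn. The ratio of Actb to Actg1 was 5.72, 4.29 and 5.1996 in WT marrow and 2.36, 2.79 and 1.73 in WT peritoneum. In Bcl2, the Actb to Actg1 ratio was 4.61, 6.25 and 4.57 in marrow and 5.36, 3.49 and 2.31 in peritoneum. It was lower in all 3 PT WT libraries than in BM WT, and in PT Bcl2 library 7 lay within the BM range. The mean log2 change of -0.85 gave an exact permutation p of 0.015, adjusted 0.06. Without library 7, the PT library that overlapped BM, the change was -1.001 and the adjusted p 0.0133. Leaving out that library separates PT from BM fully, so the lower p follows from the choice of library. The ratio of Actr2 to Actr3 was 0.470, 0.480 and 0.440 in WT marrow and 0.726, 0.779 and 0.327 in WT peritoneum. In Bcl2, the Actr2 to Actr3 ratio was 0.484, 0.447 and 0.535 in marrow and 0.566, 0.972 and 0.656 in peritoneum. Library 12 lay below all BM libraries and the other 5 PT libraries above them. The change was 0.42 with an adjusted exact permutation p of 0.28, and 0.62 with 0.02 without library 12. Library 12 was the only PT library on the other side of BM, so the lower p follows from leaving it out. The ratio of Msn to Ezr was 11.4, 19.0 and 43.7 in WT marrow and 6.55, 6.70 and 9.59 in WT peritoneum. In Bcl2, the Msn to Ezr ratio was 20.6, 12.6 and 14.9 in marrow and 41.0, 8.15 and 7.86 in peritoneum. Library 7 was high and the other 5 PT libraries lay below all BM libraries. The change was -0.84 with an adjusted exact permutation p of 0.296, and -1.24 with 0.0133 without library 7. Library 7 was the only PT library not below BM, so here too the lower p follows from leaving it out.

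The remaining 4 pairs did not pass, with or without any 1 library. The ratio of Rac1 to Rac2, the Rac form of blood cells, changed by 0.47 (adjusted exact permutation p = 0.296), with PT above BM in WT and overlap in Bcl2. That of Tmsb4x to Tmsb10 changed by 0.15 (adjusted exact permutation p = 0.855), that of Myl12a to Myl12b by -0.29 and that of Vasp to Evl by 0.61 (adjusted exact permutation p = 0.617 for both).

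**Figure D4:**
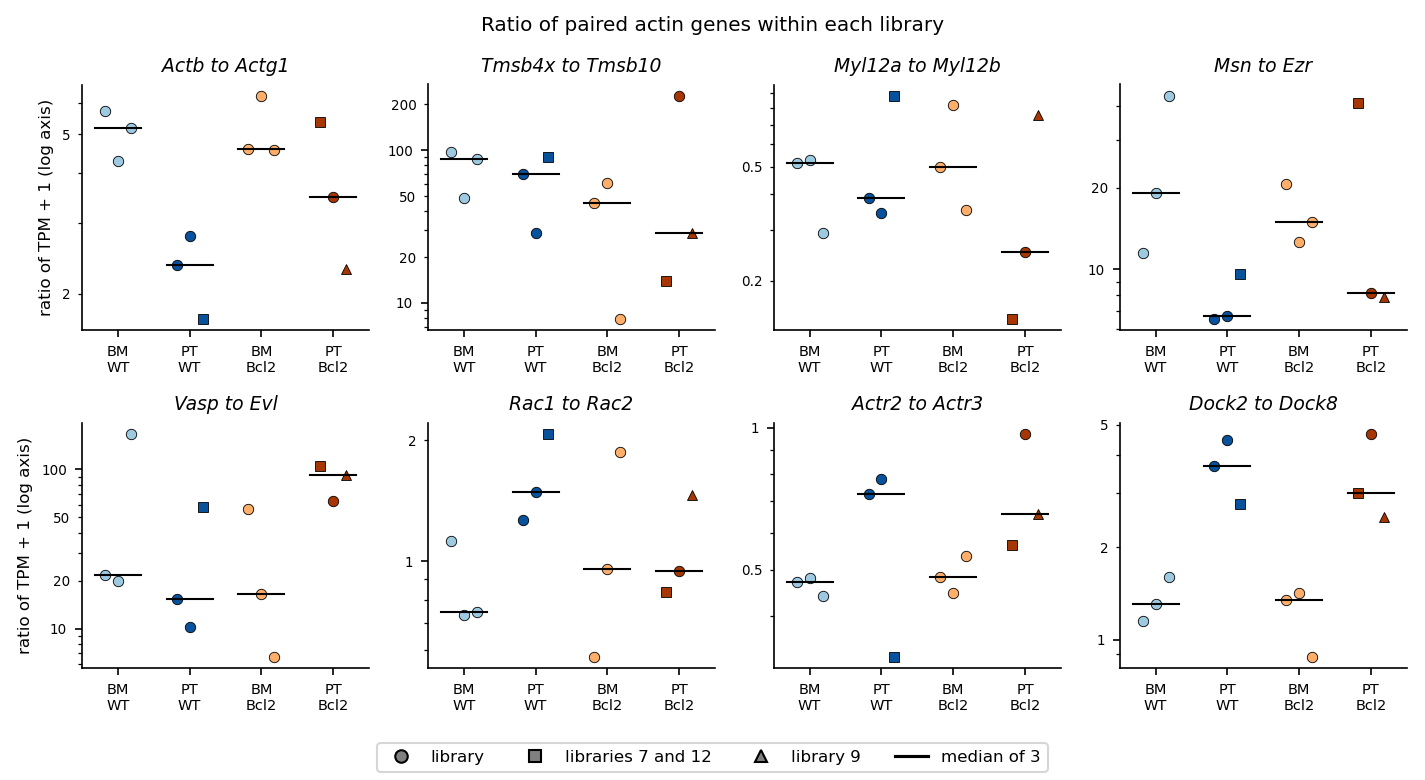
The y axis is the ratio of 2 genes within a library, on TPM + 1 and a log axis, for 8 pairs in the 4 groups, with 1 point a library (squares for libraries 7 and 12, triangles for library 9) and a line at the median of 3. Dock2 to Dock8 separates the 6 PT libraries (2.50 to 4.67) from the 6 BM libraries (0.88 to 1.60).

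The make-up of the module was compared in a like way, with each member as a percent of the summed TPM of the 43 members in its library. On that scale 5 members, 11.6% of the 43, were lower in PT than in BM without overlap in both genotypes. They were Pfn1, Tmsb4x, Arpc4, Coro1a and Fermt3, and 3.05% of all genes tested were lower in that way. Another 3 were higher (Arpc5, Msn and Basp1), where 6.35% of all were, a share near that of 3 in 43 (6.98%). Tmsb4x took 22.3, 20.1 and 21.9 percent in WT marrow and 12.7, 10.4 and 14.9 in WT peritoneum. In Bcl2, Tmsb4x took 16.9, 18.5 and 20.5 in marrow and 8.07, 11.4 and 12.4 in peritoneum. Thymosin beta 4 thus took the largest share of the 43 members in every BM library. Msn took 3.06, 4.08 and 3.15 percent in WT marrow and 8.46, 9.67 and 4.58 in WT peritoneum. In Bcl2, Msn took 4.28, 4.07 and 3.58 in marrow and 8.22, 9.92 and 10.2 in peritoneum. The lowest PT library, library 12, lay above the highest BM library. Pfn1 took 6.85, 5.89 and 9.87 percent in WT marrow and 3.49, 3.50 and 1.32 in WT peritoneum. In Bcl2, Pfn1 took 8.36, 7.37 and 7.12 in marrow and 6.36, 4.96 and 3.35 in peritoneum. Arpc5, a further Arp2/3 subunit, took 2.42, 3.36 and 2.86 percent in WT marrow and 4.99, 4.19 and 4.66 in WT peritoneum. In Bcl2, Arpc5 took 2.27, 2.32 and 2.06 in marrow and 3.06, 4.07 and 4.02 in peritoneum. Arpc4 and Arpc5 therefore moved in opposite directions within 1 complex on this scale. Because the 43 shares of a library add to 100%, a lower share of Tmsb4x raises those of other members. Genes outside the module are under no such bound, so the rates of members and of all genes are not strictly alike.

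**Figure D5:**
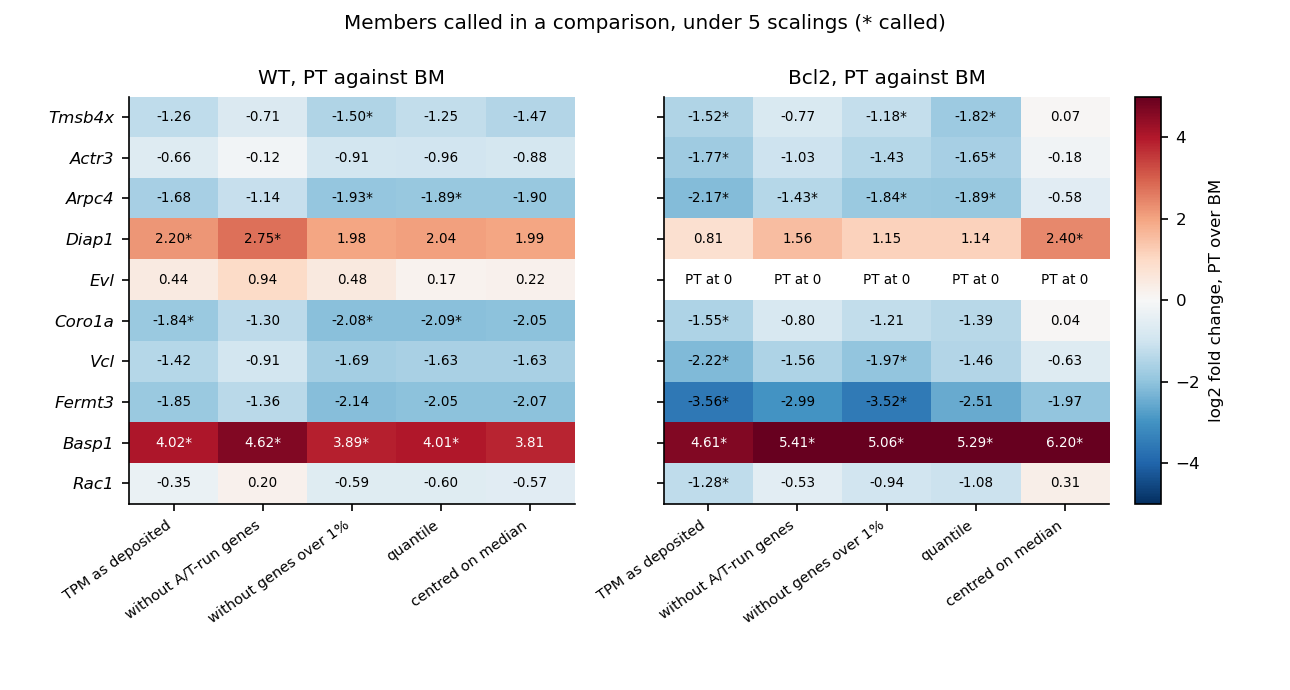
Log2 fold change of PT over BM (colour and number) for the 10 members called in a comparison, in WT (left) and Bcl2 (right), under 5 ways of scaling the libraries, with a star where the change passed the test. Basp1 is positive in all 10 cells and carries a star in 9 of them, whereas the decreases of Tmsb4x, Coro1a and Rac1 in Bcl2 shrink or turn when libraries are centred on their medians.

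Other genes of the pathway, 95 taken from a list of further actin, adhesion and motility genes, of which 88 were tested, moved as follows. In WT, 2 rose and 3 fell, where 1.59% and 1.22% of all genes did, and in Bcl2, 2 rose and 23 fell, where 2.31% and 19.1% of all did. Their median log2 fold change was -0.09 in WT and -1.10 in Bcl2, against 0.22 and -1.02 for all genes. The 2 that rose in each genotype, Marcks and Marcksl1, encode the MARCKS proteins, which like Basp1 hold PIP2 and bind actin at the membrane. Marcks was at 29.2, 128 and 36.2 TPM in WT marrow and 596, 612 and 529 in WT peritoneum. In Bcl2, Marcks had 25.7, 55.0 and 12.8 in marrow and 770.4, 362 and 361 in peritoneum. Marcksl1 was at 30.0, 34.5 and 30.6 TPM in WT marrow and 188, 116 and 393 in WT peritoneum. In Bcl2, Marcksl1 had 30.5, 56.0 and 26.5 in marrow and 508, 200.4 and 116 in peritoneum. For both genes all 6 PT libraries lay above all 6 BM libraries, with log2 fold changes of 3.46 ± 0.64 (SE, adjusted p = 0.0107) and 4.09 ± 0.64 (SE, adjusted p = 0.00148) for Marcks and of 2.66 ± 0.62 (SE, adjusted p = 0.0337) and 2.64 ± 0.62 (SE, adjusted p = 0.0101) for Marcksl1 in WT and Bcl2. Marcks was called in Bcl2 under all 24 alternatives and in WT under 22, and Marcksl1 in WT under 15. Arhgdib, an inhibitor that is abundant in the cytosol of blood cells, was at 3503, 2491 and 2738 TPM in WT marrow and 214, 241 and 479 in WT peritoneum. In Bcl2, Arhgdib had 3689, 3282 and 2936 in marrow and 330.1, 146 and 186 in peritoneum, with PT far below BM in all libraries. It fell by 3.30 on the log2 scale in WT (SE 0.46, adjusted p = 0.00195) and by 3.98 in Bcl2 (SE 0.46, adjusted p = 0.000258) and was called under all 24 alternatives in both. Dstn, destrin, a relative of cofilin that takes filaments apart, was at 309.6, 228 and 227 TPM in WT marrow and 18.1, 22.8 and 46.8 in WT peritoneum. In Bcl2, Dstn had 267, 279.7 and 273 in marrow and 24.97, 20.9 and 35.2 in peritoneum. It fell in WT (-3.18 on the log2 scale, SE 0.50, adjusted p = 0.00406), where all 24 alternatives kept the call, and in Bcl2 (-3.32 on the log2 scale, SE 0.50, adjusted p = 0.00121).

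Parvg, gamma-parvin, an integrin partner of blood cells, was at 87.4, 105 and 114 TPM in WT marrow and 10.5, 3.96 and 9.39 in WT peritoneum. In Bcl2, Parvg had 86.03, 108 and 59.8 in marrow and 1.01, 3.75 and 5.97 in peritoneum. It fell in WT (-3.61 on the log2 scale, SE 0.62, adjusted p = 0.00695) and in Bcl2 (-4.36 on the log2 scale, SE 0.62, adjusted p = 0.000974) and was called under all 24 alternatives. Pak1, a kinase switched on by Rac and Cdc42, was at 50.8, 44.6 and 27.8 TPM in WT marrow and 7.03, 5.31 and 25.9 in WT peritoneum. In Bcl2, Pak1 had 60.1, 53.3 and 44.4 in marrow and 0.970, 0.829 and 3.17 in peritoneum. PT lay below BM in both genotypes, and it fell in Bcl2 (-4.43 on the log2 scale, SE 0.68, adjusted p = 0.00131). Tpm1, a tropomyosin that coats filaments, was at 14.9, 7.70 and 4.14 TPM in WT marrow and 1.96, 5.84 and 5.12 in WT peritoneum. In Bcl2, Tpm1 had 13.7, 18.5 and 26.5 in marrow and 0, 0 and 2.67 in peritoneum. It fell in Bcl2 (-3.69 on the log2 scale, SE 0.77, adjusted p = 0.00607). Rac2 was at 269, 364 and 403 TPM in WT marrow and 147, 139.8 and 143 in WT peritoneum. In Bcl2, Rac2 had 455, 288 and 215 in marrow and 177, 97.1 and 101 in peritoneum. Every PT library lay below the BM libraries, and the changes of -1.24 ± 0.46 (SE, adjusted p = 0.18) in WT and -1.33 ± 0.46 (SE, adjusted p = 0.0517) in Bcl2 did not pass.

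Between the genotypes no member was called. In BM, 0 of the 43 members passed in limma, where 0.0223% of all genes tested did, and 1 had an unadjusted p under 0.05 (Diap1, 1.13 on the log2 scale, SE 0.51, adjusted p = 0.673), with a median log2 fold change of Bcl2 over WT of 0.15 over the members and 0.49 over all genes. In PT, 0 passed, where 0.0297% of all did, and 1 had an unadjusted p under 0.05 (Evl), with medians of -0.26 and -0.67. The smallest p-values in BM belonged to Diap1, Wasf2 (1.00 ± 0.84, log2 ± SE) and Evl, and those in PT to Evl, Fermt3 (-1.57 ± 0.77) and Rac1 (-0.84 ± 0.44). For the change in PT against BM, the smallest p-values of the difference between the genotypes belonged to Evl, Diap1 and Ezr (-1.36 ± 0.81), and none passed. Basp1 differed by 0.59 ± 1.12 between the genotypes in its change, an estimate smaller than its SE. Without library 8 or 12 the members' median in PT was 0.034 or 0.041. Among the other actin genes, 0 were called in these 3 comparisons by limma, with 9, 4 and 12 at an unadjusted p under 0.05 for the difference, BM and PT.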

How the data were processed

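The deposited table held log2 values, log2(TPM + 1), of 28987 genes in 12 libraries, which the authors made with AltAnalyze from paired-end reads of amplified cDNA. Its version, genome build and counting by strand were not given in the sources used here. Columns of the authors' averages, fold changes and p-values were not used, nor were 2 columns of per-sample values that name no sample. Genes reaching 1 TPM in 3 or more of the 12 libraries were tested with limma 3.58.1 (R 4.3.3, eBayes with trend) in 1 fit of 4 groups with 8 residual degrees of freedom. Every fold change was computed on log2(TPM + 1) and is too small for low genes. Depth cannot be read from TPM, so no counting interval is given. No pair of libraries held the same values. The fit and the exact permutation test were checked on simulated data. Those data held no shift of whole libraries and no shared mice, so the check does not cover these features of the libraries. Shared 31-base words and positions came from GENCODE M21 (GRCm38), promoters from RefSeq. Members and lists were chosen with earlier results of these data known. Members were named with values if called, highest in their role, among the 5 largest mean changes in either direction or the 3 smallest p-values of a comparison, or in a ratio pair. Other actin genes were named if among the 5 largest called, with Rac2. Scalings, filters, pseudocounts, thresholds and left-out libraries were varied. Rescaling without genes with long A or T runs (108 genes), leaving out libraries 7 and 12 together, and shares of the members' sum were added after seeing the data.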

Additional observations from a re-analysis of the deposited data

How the results depend on the processing

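No paired analysis was possible because the library columns carry no mouse or replicate number. The members called in PT against BM (3 in WT, 9 in Bcl2) numbered 0 and 5 after median centring of the libraries, 4 in Bcl2 after quantile normalization, 5 in WT after rescaling without genes over 1% of TPM, 4 in Bcl2 without genes with long A or T runs, 1 and 5 in eBayes without the trend, and 1 in WT with only the groups compared. At an unadjusted p they numbered 10 and 17, and 1 each for the difference between genotypes and for the genotype comparisons of marrow and peritoneum. Without libraries 7 and 12, chosen after seeing the data, they were 7 and 21. Leaving out each library gave 0 (without library 4 or 10) to 6 (without library 7) in WT and 3 (without library 2, 3, 8 or 9) to 16 (without library 7) in Bcl2, and without library 9 the 3 were Arpc4, Basp1 and Fermt3. Shares of all genes are not given for an unadjusted p, eBayes without the trend, the groups compared alone or most left-out libraries. Counts under those settings, here and in other paragraphs, therefore do not show how the members or the other actin genes stood against all genes.

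The members' median log2 fold change in PT against BM turned to 0.047 in WT and went to -0.048 in Bcl2 without genes with long runs. With centring it turned to 0.80 in Bcl2, to 1.51 for the difference between genotypes, to -0.58 for Bcl2 against WT in BM and to 0.80 in PT, and rescaling without genes over 1% of TPM turned the difference to 0.29. Without libraries 7 and 12 it was -1.35 in Bcl2. Without each library in turn it ranged from -0.71 to -0.33 in WT, -1.35 (without library 7) to -0.38 in Bcl2 and -0.83 (without library 7) to -0.065 for the difference. With centring, Coro1a (0.040), Rac1 (0.31) and Tmsb4x (0.070) turned in Bcl2.

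The other actin genes called (5 in WT, 25 in Bcl2) numbered 9 and 14 after quantile normalization, 14 in Bcl2 without genes with long runs, 11 in WT without libraries 7 and 12, and 24 and 38 at an unadjusted p, with 9, 4 and 12 for the difference and for the genotypes in BM and PT. Without each library they numbered 3 to 8 and 15 to 29. Of the 8 ratios, 1 was called, 4 without libraries 7 and 12, and 1 to 3 without each library (3 without library 7, 2 without library 12). The ratio calls gained were of pairs in which the left-out PT library overlapped BM or lay on its other side. The cause of the shifts under these settings was not tested. The calls over all genes, 214 higher and 164 lower in WT and 311 and 2567 in Bcl2, became 112 and 197 in WT and 1636 and 467 in Bcl2 with centring, 233 and 264 and 678 and 779 after quantile normalization, 161 and 201 and 404 and 1863 without genes over 1% of TPM, and 515 and 119 and 549 and 1115 without genes with long runs. With 3 libraries a group, a member that was not called can still differ.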
